A study of Mus musculus with 2 samples.

Results

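Messenger RNA signals of 10 genes of iron uptake, storage and sensing were compared between a CCR4b-depleted and a control culture of NIH3T3 cells, an immortalised line of mouse embryonic fibroblasts. The genes were Tfrc, Fth1, Ftl1, Slc40a1, Slc11a2, Aco1, Ireb2, Steap3, Fbxl5 and Ncoa4, and every probe set annotated to one of these symbols was taken, 27 of 45101. The array gives 18194 genes a probe set of their own, among them all of these but Ftl1. The 10 genes were chosen by pathway with the ratios of CCR4b RNAi over control RNAi on this pair of arrays already known, so the values below describe the pair, with no test. The control culture (Control RNAi) was infected with a retrovirus expressing a control short hairpin RNA, and the depleted culture (CCR4b RNAi) with one expressing a hairpin against CCR4b, also called CNOT6L. CCR4b is a deadenylase of the CCR4-NOT complex, which shortens poly(A) tails of mRNAs, and the comparison asks which transcripts differ when it is depleted. Both cultures were grown in serum-containing DMEM. Each group is 1 array of 1 culture, so no value has a replicate error, and the effect of the hairpin cannot be told apart from any other difference between the cultures.

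Cells take up iron mainly through the transferrin receptor, reduce it in endosomes, pass it to the cytosol, store the surplus in ferritin and export it through ferroportin. The iron regulatory proteins sense cytosolic iron: when iron is scarce they bind hairpins called iron-responsive elements, which protects the Tfrc mRNA through its 3' UTR and blocks translation of ferritin and ferroportin mRNAs through their 5' UTRs. The array reads mRNA levels, so translational control, protein levels and iron itself were not measured.

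Of the 10 genes, 9 had at least 1 probe set annotated to that gene alone, 24 probe sets in all. Signals are given in the arbitrary units of the deposited values, and values under 8.07 units, the median of all values of both arrays, were raised to that floor before a log2 ratio of CCR4b RNAi over control RNAi was taken. Of the 24 probe sets, 18 were above the floor on both arrays, 3 on 1 array and 3 on neither. The brightest probe set stood for its gene, and 9 genes were measured by that rule. Cnot6l, the gene targeted by the hairpin, read 102 and 43.0 units, 2.38-fold lower in the depleted culture, with all 4 probe sets lower.

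The 2 ends of the group were a receptor and an exporter. Tfrc, the transferrin receptor, was 2.99-fold lower in the CCR4b RNAi culture, and Slc40a1, which encodes ferroportin, was 3.55-fold higher, a difference of 3.41 between their log2 ratios. Aco1, which encodes the iron regulatory protein IRP1, was 1.62-fold lower. In bulk RNA, fewer cells that express a gene and less of its RNA per cell cannot be told apart. The remaining 6 measured genes lay within 1.5-fold. Counted at 1.5-fold, 1 of 9 genes was higher, where 11.3% of the 11915 measured genes were, and 2 of 9 were lower, where 14.6% of measured genes were. These shares move with the scaling, since dividing each array by its median gave 1083 higher and 2259 lower genes in place of 1352 and 1744. The shares of the 9 genes are near those of all genes. Their median log2 ratio was -0.038, beside -0.070 for all measured genes. That median turned to 0.11 with quantile normalization and 0.12 with a loess correction.

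**Figure D1:**
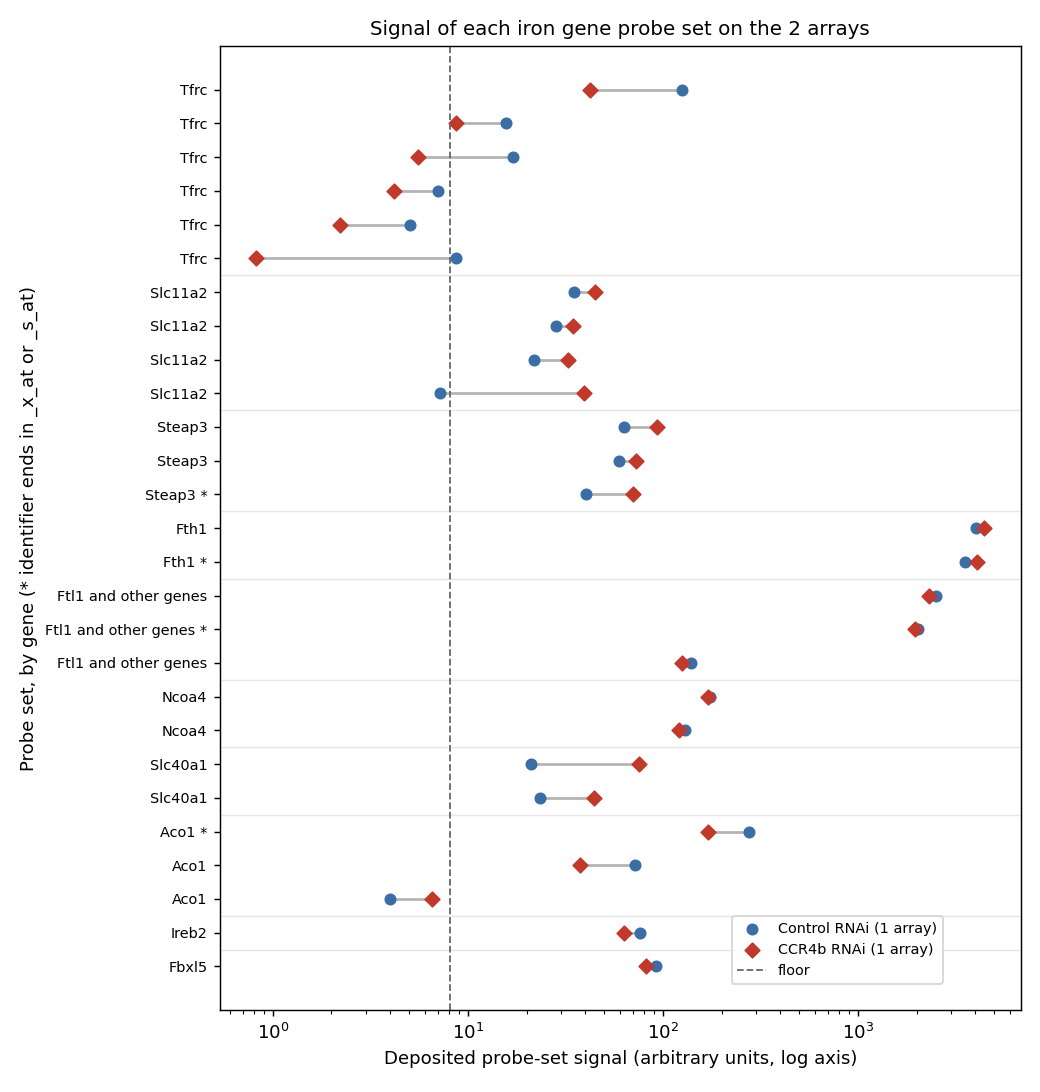
Deposited signal (arbitrary units, log axis) of each of the 27 probe sets annotated to the iron genes, on the Control RNAi array (blue circles) and the CCR4b RNAi array (red diamonds), with the floor of 8.07 units as a dashed line. All 6 Tfrc probe sets lie to the left on the CCR4b RNAi array and both Slc40a1 probe sets to the right, while the ferritin and Ncoa4 pairs nearly coincide.

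TFRC binds iron-loaded transferrin at the cell surface and carries it into endosomes. The brightest Tfrc probe set gave a signal of 126 units on the control array and 42.2 units on the CCR4b RNAi array (log2 ratio -1.58). Genes of similar signal, the 7th of 10 equal classes of mean signal, had a median log2 ratio of -0.14 and a robust SD of 0.43, and Tfrc had percentile 0.671 among them. Of all measured genes, 96 had a ratio as low as that of Tfrc or lower. The other Tfrc probe sets were dim. One went from 17.0 units to 5.55, below the floor, and is at least 2.11-fold lower. Another went from 8.72 units, just above the floor, to 0.825, which allows no more than a bound of at least 1.08-fold lower.

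Tfrc is also read by the array's own control probe sets, which sample the 3' end, the middle and the 5' end of the transcript. The 3' probe set gave 15.8 units (control) and 8.68 units (CCR4b RNAi), 1.82-fold lower. The middle probe set (5.05 and 2.20 units) and the 5' probe set (7.005 and 4.16 units) stayed below the floor on both arrays and have no ratio. Each of the 6 Tfrc probe sets thus had the lower signal on the CCR4b RNAi array, but for 2 of them the fold is a bound and for 2 it cannot be given. With the median over its 4 measured probe sets in place of the brightest, the log2 ratio of Tfrc was -0.97, since 2 of them are bounds.

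Tfrc is commonly high in dividing cells, and genes of cell division were lower in the same pair of arrays. All 9 measured genes of a list of 10 proliferation genes were at least 1.5-fold lower (8 or 9 under the alternative settings), where 14.6% of all measured genes were, with a median log2 ratio of -1.30 and summed signals of 4374 units (control) and 2048 units (CCR4b RNAi). They ran from Mcm5, a subunit of the replicative helicase (3.78-fold lower), and Ccna2, cyclin A2 (2.67-fold lower), to Pcna, the polymerase clamp (1.77-fold lower), and Rrm2, a subunit of ribonucleotide reductase (1.58-fold lower). Their part in the Tfrc value was not tested. Zc3h12a and Rc3h1, which encode Regnase-1 and Roquin-1, RNA-binding proteins described on the Tfrc 3' UTR, had log2 ratios of 0.039 and 0.35. Zc3h12a turned to -0.055 under scaling by the array medians, and its second, dimmer probe set gave 17.4 and 11.9 units. Rc3h2, the paralogue of Rc3h1, had a log2 ratio of -0.027, which turned to 0.082 with quantile normalization, and its other 5 measured probe sets ran from -0.62 to 0.53. On their brightest probe sets none of the 3 reached 1.5-fold in either direction, while 2 dimmer Rc3h2 probe sets were past 1.5-fold lower, 1 of them as a bound.

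The start of Tfrc is shown because this gene had the lowest ratio of the group and because the bases around it hold the letters ACGTG, the core of the element that hypoxia-inducible factors bind. Both strands were searched (ACGTG or CACGT; the E-box CACGTG holds both) in RefSeq windows of the GRCm38.p6 assembly that run from 250 bases before to 50 after each annotated start. In all, 19.6% of 32851 windows hold the letters, and so do 4 of the 14 windows of the 7 member genes with an entry in the table (Tfrc, Fth1, Ftl1, Aco1, Ireb2, Steap3 and Ncoa4). The 4 windows belong to Tfrc and Ncoa4, and the pair of Tfrc windows overlap and share 1 match. The Tfrc stretch, at chr16:32608883-32608909 on the plus strand and spanning 1 of the 2 annotated starts, has the match in capitals.
Tfrc: tcggtaggtgtACGTGcggaaggaagt
For comparison, Ncoa4, whose signal hardly differed, holds a match upstream of each of 2 of its annotated starts, at chr14:32159805-32159831 and chr14:32165710-32165736, both written on the plus strand.
Ncoa4 first: ctgcatgcctcCACGTtgagctctaag
Ncoa4 second: gggggagggagACGTGacgcgcgcaag
The match is thus present at the gene with the lowest ratio and at one with a log2 ratio of -0.038. It is a description of these windows, not a measured binding site.

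The 2 genes that act after the receptor in the endosome were slightly higher. STEAP3 reduces ferric iron there, and its brightest probe set gave 63.5 units (control) and 93.1 units (CCR4b RNAi), a 1.47-fold higher signal (log2 ratio 0.55). The other Steap3 probe sets read 59.3 and 73.1 units (1.23-fold higher) and 40.3 and 70.3 units (1.74-fold higher). The last has an identifier ending in _x_at and may hybridise to several transcripts. Steap3 had percentile 93.4 in its signal class and lay just under the 1.5-fold line. It passed that line with quantile normalization (log2 ratio 0.67) and with the loess correction (0.66).

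SLC11A2, also called DMT1, carries ferrous iron out of the endosome. Its brightest probe set read 34.9 and 44.9 units, 1.29-fold higher in the depleted culture (log2 ratio 0.36, within the class robust SD of 0.57). The next probe sets gave 28.3 and 34.6 units (1.22-fold higher) and 21.8 and 32.6 units (log2 ratio 0.58). The last stood apart, with 7.21 units in the control and 39.3 in the depleted culture, at least 4.87-fold higher. Slc11a2 transcripts differ at their 3' ends, some with an iron-responsive element and some without. Which of them each probe set reads was not analysed here.

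The ferritins, the storage shell, were nearly level. FTH1 is the heavy chain, which oxidises iron as it enters. Its brighter probe set gave 4031 units (control) and 4437 units (CCR4b RNAi), a 1.10-fold higher signal (log2 ratio 0.14). The second Fth1 probe set, with an identifier ending in _s_at, read 3538 and 4100 units, 1.16-fold higher. In the brightest class of genes, where Fth1 lies, the median log2 ratio was -0.17 and the robust SD 0.36, and the brighter probe set lay within it.

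Ftl1, the light chain, had no probe set of its own. Its 3 probe sets are annotated to a pseudogene, Ftl1-ps2, as well, and 1 of them to microRNA genes too, so they do not enter the counts. These shared probe sets read 2515 and 2327 units, 2023 and 1951 units, and 139 and 125 units in control and depleted cells, with log2 ratios of -0.11, -0.052 and -0.16. Ncoa4 encodes the receptor that delivers ferritin to the lysosome for breakdown. It read 175 and 171 units on one probe set and 130 and 122 units on the other, with log2 ratios of -0.038 and -0.099. The sign of the first is not settled, since it turned to 0.11 with quantile normalization and 0.12 with the loess correction.

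Ferroportin, encoded by Slc40a1, is the exporter of iron from the cell. One probe set gave 21.1 units (control) and 75.1 units (CCR4b RNAi), a 3.55-fold higher signal (log2 ratio 1.83). The other gave 23.6 and 44.2 units, 1.88-fold higher (log2 ratio 0.91). The first had percentile 99.7 in its signal class, whose robust SD was 0.57, and 51 measured genes had a ratio as high or higher. The probe sets share a direction and differ in size, and their control signals are nearer to the floor than those of the depleted culture. With the floor at the 75th percentile of all values, the log2 ratio of Slc40a1 was 1.07, because the control signal is then below the floor.

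The iron sensors all read lower on their brightest probe sets, Aco1 by more than Ireb2 and Fbxl5. Aco1 encodes IRP1, which is a cytosolic aconitase when it holds an iron-sulphur cluster and an RNA-binding protein when it does not. Its brightest probe set, with an identifier ending in _x_at, gave 278 units (control) and 171 units (CCR4b RNAi), a 1.62-fold lower signal (log2 ratio -0.70). The next read 71.9 and 37.4 units, 1.92-fold lower, and the dimmest stayed below the floor on both arrays (3.98 and 6.56 units). Aco1 had percentile 10.7 in its signal class. It no longer reached 1.5-fold with quantile normalization (log2 ratio -0.54) or the loess correction (-0.53).

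Ireb2 encodes IRP2, the iron regulatory protein that is controlled by degradation. Its 1 probe set read 76.6 and 63.0 units, 1.22-fold lower (log2 ratio -0.28). Fbxl5 encodes the iron-binding subunit of the ubiquitin ligase that degrades IRP2, and its 1 probe set read 92.1 and 82.2 units, 1.12-fold lower (log2 ratio -0.16). Both lie within the robust SD of 0.43 of their class, and the log2 ratio of Ireb2 was 0.42 above that of Aco1. That gap is not far from the median difference of 0.32 between 2 probe sets of the same gene.

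**Figure D2:**
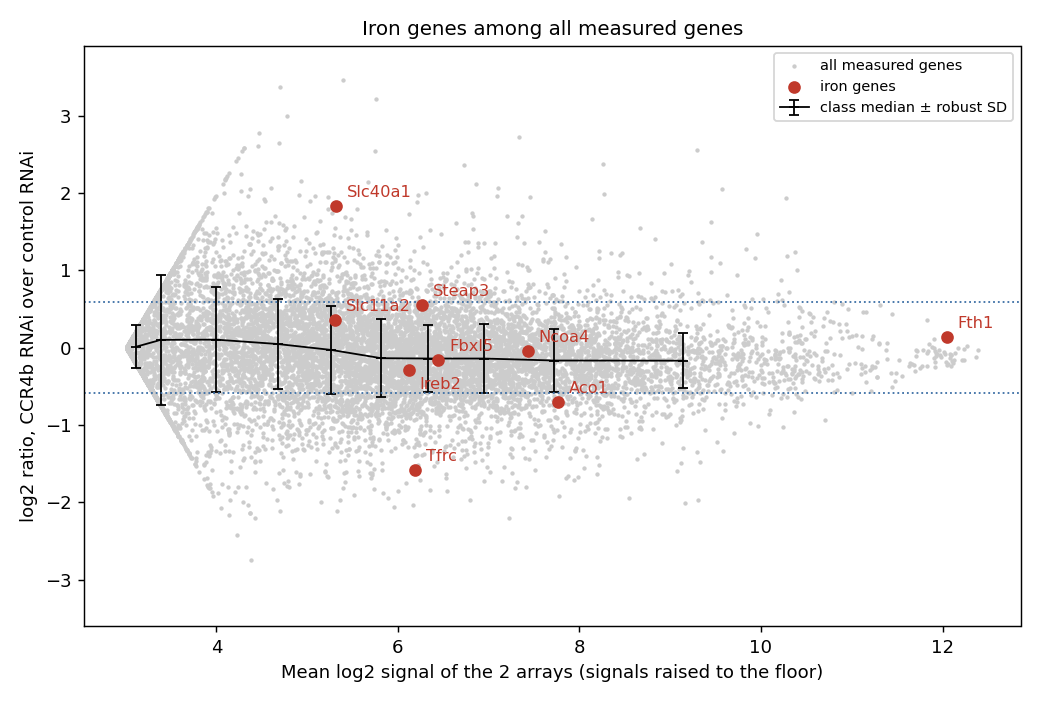
Log2 ratio of CCR4b RNAi over control RNAi against mean log2 signal for the 11915 measured genes (grey), with the 9 measured iron genes in red, the median and robust SD of each of 10 signal classes in black, and 1.5-fold as dotted lines. Tfrc (-1.58) and Slc40a1 (1.83) lie far outside the class bars, Aco1 and Steap3 lie near the dotted lines, and the other 5 lie inside the bars.

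For scale, 2 probe sets of the same gene above the floor on both arrays differed by a median of 0.32 in log2 ratio over 2716 genes. Of the 9 iron genes, 4 (Tfrc, Slc40a1, Aco1 and Steap3) lay outside 1 robust SD of their class, where 30.7% of all measured genes did. Actb and Gapdh had log2 ratios of -0.11 and -0.075. All 10 fibroblast markers examined were measured, with summed signals of 16728 units (control) and 19975 units (CCR4b RNAi). Of these, 3 were at least 1.5-fold higher, namely Postn (3.85-fold), Sparc (2.36-fold) and Col1a1 (1.52-fold), and Thy1 was 1.70-fold lower. Among all measured genes, 11.3% were at least 1.5-fold higher and 14.6% at least 1.5-fold lower. The other Sparc probe sets had log2 ratios from 0.17 to 1.44. Col1a1 no longer reached 1.5-fold under scaling by the array medians (log2 ratio 0.51). The part of these marker differences in the iron gene values was not tested. Of the 5 erythroid markers with a probe set, globin and Alas2 among them, all were below the floor on both arrays. Of 6 macrophage markers 4 were measured, with summed signals of 77.3 and 74.2 units and Ptprc and Itgam below the floor. Among the 4, Cd68 was 2.55-fold lower and Cd14 1.79-fold higher. Of 5 epithelial markers only Epcam was (19.4 and 29.5 units).

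Around these genes, 6 lists of other iron, haem and iron-sulphur genes were examined, with 82 genes of which 65 were measured. Of these, 5 were at least 1.5-fold higher (7.69%) and 13 at least 1.5-fold lower (20%), with a median log2 ratio of -0.23. Of all measured genes, 11.3% were as much higher and 14.6% as much lower. The lists went different ways, with carriers above 0 in their median and haem and iron-sulphur genes below 0.

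Carriers and reductases at the cell surface and in vesicles went both ways, with 4 of 13 measured genes at least 1.5-fold higher, 3 as much lower and a median log2 ratio of 0.24. These counts stand beside 11.3% higher and 14.6% lower of all measured genes. Under the alternative settings they ran from 4 to 6 higher and from 2 to 3 lower. Cp encodes ceruloplasmin, the ferroxidase that works with ferroportin during export. Its leading probe set gave 154 units (control) and 614 units (CCR4b RNAi), a 3.98-fold higher signal. All 8 Cp probe sets were higher, and the 6 above the floor on both arrays had log2 ratios between 1.35 and 2.29. Cp and Slc40a1 thus had the higher signal on every probe set.

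Steap4, a metalloreductase related to STEAP3, read 69.2 and 269 units, 3.89-fold higher, and 14.6 and 115 units on its second probe set. Scara5, a receptor for serum ferritin, read 116 and 332 units, 2.85-fold higher on its 1 measured probe set. The 4th higher gene, Lcn2, named after its value was seen, encodes a protein that binds iron through siderophores and was 1.97-fold higher, from 105 to 207 units. In the other direction, Steap1, a further family member, read 271 and 119 units, 2.28-fold lower, with 219 and 98.0 units on its second probe set. Flvcr1, a haem exporter, was 1.95-fold lower from 81.7 units, but its dim probe set read 6.70 and 8.79 units. Tfr2, the second transferrin receptor, went from 16.2 units to below the floor and is at least 2.01-fold lower. Of the STEAP family, Steap4 was thus past 1.5-fold higher and Steap1 past 1.5-fold lower, while Steap3 (1.47-fold higher) and Steap2 lay within 1.5-fold. Steap2 had a log2 ratio of -0.19, with -0.50 to 0.97 on its other probe sets.

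Genes of iron-sulphur cluster assembly, a major use of iron inside the cell, lay mostly on the lower side. Of 24 measured genes of mitochondrial iron import and iron-sulphur cluster assembly, 6 were at least 1.5-fold lower and 1 was higher. These counts stand beside 14.6% and 11.3% of all measured genes. A ratio below 0 was found for 20 of the 24, where 56% of all measured genes had one. The median log2 ratio was -0.37. Under the alternative settings this median ran from -0.47 to -0.22 and the count of lower genes from 4 to 7. The largest differences were those of Ciapin1 (2.33-fold lower), Nubp1 (2.20-fold) and Nubpl (2.15-fold), which act in cytosolic or mitochondrial cluster assembly. The Ciapin1 value comes from a probe set ending in _s_at, and 2 others of it read 41.5 and 37.5 units and 36.8 and 32.8 units. A 4th Ciapin1 probe set went the other way, from 0.911 units, below the floor, to 13.9 units (log2 ratio at least 0.79), so the probe sets of this gene disagree. Nubp1 was also lower on its second probe set (142.9 and 81.9 units) but read 29.2 and 27.6 units on the dimmest. Slc25a37, mitoferrin-1, which imports iron into mitochondria, was the higher one, from 30.3 to 56.7 units (1.87-fold).

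Haem genes showed 3 of 14 at least 1.5-fold lower and none as much higher, beside 14.6% and 11.3% of all measured genes, with a median log2 ratio of -0.33. Those lower were Alad, an early enzyme of the pathway (1.67-fold, from 168 to 100.3 units), Hmox2, the constitutive haem oxygenase (1.54-fold), and Uros (1.51-fold). The count of lower haem genes was 1 with quantile normalization and 1 with the loess correction. Hmox1, the inducible haem oxygenase, read 217 and 267 units, 1.23-fold higher. Of the iron chaperones and partners of FBXL5 and NCOA4, 1 of 8 was at least 1.5-fold different. It was Bola2, 1.76-fold lower from 260 units, although its probe sets disagreed and one read 10.6 and 34.6 units. Glrx3 (9.70 and 9.97 units) and Rbx1 (10.6 and 10.2 units) were near the floor, which limits how much lower they could read.

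The remaining lists were measured only in part. Of 7 genes of the hepcidin axis, which controls body iron from the liver, 4 were below the floor on both arrays and the 3 measured lay within 1.5-fold. Among the 3, Hamp (10.1 and 10.6 units) and Hfe (12.0 and 13.5 units) were near the floor. The floor limits how much lower they could read. Of 6 other mRNAs with a described iron-responsive element, 3 were measured, with log2 ratios of 0.20 for Cdc42bpa, 0.21 for Cdc14a and 0.51 for App. The other measured Cdc42bpa probe set went the other way (-0.82), and Cdc14a read 9.46 and 10.9 units, near the floor. App encodes the amyloid precursor protein and read 502 and 716 units. Among the members whose mRNAs carry such elements, the log2 ratio was -1.58 for Tfrc, which has them in its 3' UTR. It was 0.14 for Fth1 and 1.83 for Slc40a1, which have one in the 5' UTR. The shared probe sets of Ftl1, the other ferritin, gave -0.11, -0.052 and -0.16. Slc11a2, of which only some transcripts carry an element, had 0.36. The elements act on mRNA stability or on translation, and their part in these values was not tested.

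**Figure D3:**
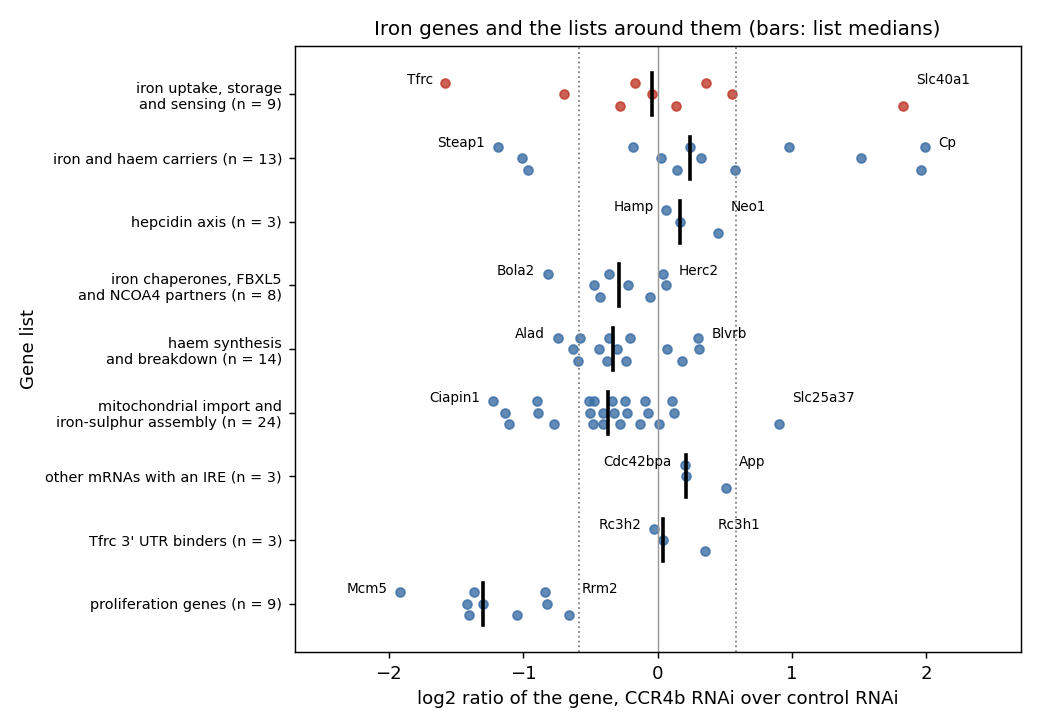
Log2 ratio of CCR4b RNAi over control RNAi for each measured gene (points) of the iron genes (red) and of the lists around them (blue), with the median of each list as a black bar, 1.5-fold as dotted lines and the lowest and highest gene named. The red points span the range from Tfrc to Slc40a1, the carriers reach from Steap1 to Cp, and all 9 proliferation genes lie left of the dotted line. The values of Tfr2 and Iba57 are bounds.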

How the data were processed

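The files hold 1 deposited intensity per probe set and array, on a linear scale, from Affymetrix Mouse Genome arrays. According to the series design text and the submitters' processing notes, the authors obtained these intensities with GCOS and a global normalization. The sources used here do not give the GCOS version or target value. The platform annotation gives 1 symbol for 34958 probe sets, several for 932 and none for 9211. Signals were raised to a floor at the 50th percentile of all values (8.07 units) because no detection calls were used. A gene's brightest probe set, by mean log2 signal, represented it and counted as measured if either array reached the floor. A ratio against the floor is a bound, written "at least". The robust SD is a scaled median absolute deviation within a signal class. The number of arrays limits the precision, and no test was possible.

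The members and lists were chosen with earlier results of these data known. The text names all members, Cnot6l, Actb, Gapdh, up to 3 genes per direction and list past 1.5-fold, 4 proliferation genes, Hmox1, Zc3h12a and Rc3h1; other genes named were chosen after their values were seen. There were 8 alternatives: array medians, quantile normalization or loess (span 0.3) for scaling, a floor at percentile 25 or 75, log2 of signal plus 1 without a floor, a median over probe sets, and no probe sets ending in _x_at or _s_at. Python 3.11.15 and statsmodels 0.14.6 were used. The procedure was tested on simulated data with large differences planted in genes well above the floor. That test does not cover dim signals or ratios near 1.5-fold.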

Additional observations from a re-analysis of the deposited data

How the results depend on the processing

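Under the 8 alternatives Tfrc stayed below 0 (log2 ratios from -1.67 to -0.97), Slc40a1 above 0 (1.07 to 1.85) and Aco1 below 0 (-0.94 to -0.53). Tfrc moved most with the median over its probe sets (-0.97) and Slc40a1 with the floor at the 75th percentile (1.07), where the construction makes dim signals bounds. Fth1, Slc11a2 and Steap3 stayed above 0 and Ireb2 and Fbxl5 below 0, while Ncoa4 turned under 2 alternatives. The count of members at least 1.5-fold higher was 2 in place of 1, and of those lower 1 in place of 2, with quantile normalization and likewise with the loess correction, because Steap3 passed the line and Aco1 did not. Over all measured genes, 3222 were at least 1.5-fold higher and 3516 lower with the floor at the 25th percentile, where more dim genes are counted, and 472 and 1025 with the floor at the 75th, where fewer are. No paired analysis was possible because each group holds 1 array and the values come from no test. Signals near the floor, such as those of 5 of the 6 Tfrc probe sets, limit what can be said of them, and leaving out an array would leave no comparison.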
